A study of Mus musculus with 6 samples.

Results

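The lipid droplet and lipolysis genes described here are 10 genes taken by symbol from the 32479 rows of the deposited table: the lipases Pnpla2, Lipe and Mgll, the lipase co-activator Abhd5, the lipase inhibitors G0s2 and Hilpda, and the droplet coat proteins Plin2, Plin3, Plin4 and Plin5. Each had 1 row, and all 10 passed the filter on low values. The study sequenced 6 libraries whose cells carry the label cardiac fibroblasts: 3 come from the control group of C57BL/6J mice and 3 from C57BL/6J mice that received carbon tetrachloride (CCl4), a solvent that scars the liver and serves as a model of cirrhosis. All mice shared this strain label and no transgene is named, and the sources used here give neither the dose, route and duration of CCl4 nor the age and sex of the mice. Values are FPKM, fragments per kilobase of gene model and per number of mapped fragments, so they can be compared between genes.

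Heart muscle transcripts dominated the libraries that carry the fibroblast label. The summed level of 20 cardiomyocyte markers ran from 18439 to 22657 FPKM over the controls and from 24877 to 26960 FPKM after CCl4. That of 15 fibroblast markers ran from 541 to 899 and from 717 to 733 FPKM. Of the cardiomyocyte list 1 gene fell and 5 rose, and of the fibroblast list 0 fell and 8 rose. Of 10 endothelial markers 1 fell and 1 rose. Of 8 smooth muscle and pericyte markers 0 fell and 2 rose, and of 9 tested macrophage markers 1 fell and 1 rose. Over all tested rows 22.2% fell and 9.64% rose. Of 13 adipocyte markers 7 stayed at or below 0.5 FPKM in every library. Among them were the defining markers Plin1 (at most 0.05 FPKM), Adipoq (0.19) and Cidec (0.40), and also Ucp1 (0.03). Of the other adipocyte markers, Cfd reached 1.89 and Car3 1.21 FPKM, and 4 passed the filter: Cidea rose, Pparg (2.1 to 4.79 FPKM) fell, and Thrsp (3.93 to 7.62 FPKM) and Fabp4 were not called. The summed level of the 13 adipocyte markers spanned 124 to 136 FPKM over the controls and 116 to 140 FPKM after CCl4, most of it from Fabp4, which vessel cells also make. In bulk samples fewer cells of a type and less RNA per cell cannot be told apart. The mitochondrial transcripts took 48.6% to 50.7% of the FPKM sum in control and 52.0% to 53.2% in CCl4 libraries. Nnt, a mitochondrial gene in which C57BL/6J mice are known to carry a deletion, has 2 rows. How fragments were shared between these 2 rows was not tested. The first stood at 59.5 to 89.96 FPKM over the controls and at 2.27 to 2.87 FPKM after CCl4, and the second at 69.2 to 145 and 90.1 to 106 FPKM. The sum of both rows was 129 to 235 FPKM over the controls and 92.4 to 109 FPKM after CCl4, without overlap. Whether the groups shared 1 genetic background was not tested.

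Lipid droplets are stores of triglyceride wrapped in a single layer of phospholipid and coated by perilipins. Lipolysis frees the stored fatty acids in steps: adipose triglyceride lipase, the product of Pnpla2, removes the first fatty acid, hormone-sensitive lipase, the product of Lipe, acts mainly on the diglyceride that is left, and monoglyceride lipase, the product of Mgll, finishes the breakdown. Abhd5 (also called CGI-58) switches the Pnpla2 product on, while G0s2 and Hilpda hold it back. Heart muscle burns mostly fatty acids, and fatty acids freed by the Pnpla2 product also serve there to activate the nuclear receptor PPAR alpha.

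To show the sequence at which transcription of these genes starts, the 250 bases before the RefSeq start are given for 3 genes that fell (Pnpla2, Plin4 and Plin2) and for 2 that were not called (Abhd5 and G0s2). They read 5′ to 3′ on the strand of the gene and come from RefSeq on GRCm38.p6. Capitals mark 3 motifs on either strand: AGGTCA or TGACCT, the hexamer that nuclear receptors such as the PPARs bind, CCAAT or ATTGG, and GGGCGG or CCGCCC, the GC box. The windows lie at chr7:141454938-141455187 (plus strand), chr17:56109783-56110032 (minus strand), chr4:86670060-86670309 (minus strand), chr9:122351366-122351615 (plus strand) and chr1:193273189-193273438 (minus strand).
Pnpla2: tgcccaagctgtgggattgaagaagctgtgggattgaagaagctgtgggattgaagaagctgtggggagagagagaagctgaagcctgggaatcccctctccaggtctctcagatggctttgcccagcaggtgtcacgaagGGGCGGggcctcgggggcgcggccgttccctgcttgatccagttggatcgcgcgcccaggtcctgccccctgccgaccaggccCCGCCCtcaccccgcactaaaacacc
Plin4: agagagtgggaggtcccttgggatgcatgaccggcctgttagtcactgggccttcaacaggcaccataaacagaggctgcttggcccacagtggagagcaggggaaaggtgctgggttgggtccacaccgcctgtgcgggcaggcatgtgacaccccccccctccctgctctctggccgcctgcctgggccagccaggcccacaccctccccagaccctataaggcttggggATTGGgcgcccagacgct
Plin2: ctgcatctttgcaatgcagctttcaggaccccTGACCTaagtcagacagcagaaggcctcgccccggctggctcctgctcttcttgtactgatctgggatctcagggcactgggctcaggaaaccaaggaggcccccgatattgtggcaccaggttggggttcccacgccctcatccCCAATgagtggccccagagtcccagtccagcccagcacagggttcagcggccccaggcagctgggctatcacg
Abhd5: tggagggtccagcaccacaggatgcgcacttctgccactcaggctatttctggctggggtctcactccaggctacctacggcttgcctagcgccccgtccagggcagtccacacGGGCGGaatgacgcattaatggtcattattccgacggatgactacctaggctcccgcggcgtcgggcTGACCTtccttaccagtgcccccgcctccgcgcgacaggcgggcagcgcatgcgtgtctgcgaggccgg
G0s2: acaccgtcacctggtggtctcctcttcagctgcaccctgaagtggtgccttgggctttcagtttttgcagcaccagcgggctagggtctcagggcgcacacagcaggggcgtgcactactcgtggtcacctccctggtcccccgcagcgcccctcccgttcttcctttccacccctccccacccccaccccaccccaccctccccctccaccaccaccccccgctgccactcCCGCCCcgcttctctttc

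All 10 genes had a RefSeq window, and where a gene had several starts the most upstream was used. AGGTCA stood in the windows of Plin2, Plin5 and Abhd5, that is 3 of 10, and in 14.0% of all 32851 windows of this length. Its direct repeat AGGTCANAGGTCA, which contains the hexamer, stood in none of the 10 and in 0.0335% of all windows. The CCAAT box was found upstream of Plin2, Plin3, Plin4 and Plin5 and of no other member (4 of 10, against 33.8% of all windows). The GC box was found in 7 of 10 windows, those of Pnpla2, Lipe, Abhd5, G0s2, Hilpda, Plin3 and Plin5, against 32.7% of all. The forkhead motif TGTTTAC stood upstream of Mgll (3.17% of all windows), and ACGTG, the core of the hypoxia response element, upstream of Lipe and Mgll (16.6% of all windows). Both strands were searched for every motif, and ACGTG on opposite strands overlaps itself at both genes. Genes that fell and genes that were not called both held AGGTCA and GGGCGG. These matches describe letters in 250 bases and are not evidence of binding.

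Setting CCl4 against control shows how these genes differed between the heart libraries of the groups. The subject of the study is experimental liver cirrhosis, and no value used here shows the state of the liver. Both lipases that act first fell, and so did all 4 perilipins, whereas the third lipase, the co-activator and both inhibitors were not called. By limma over the whole table (Benjamini-Hochberg adjusted p under 0.05), 6 of 10 members were lower and 0 higher, with 6 and 0 also at an unadjusted p under 0.05. Over all 10995 rows tested, 31.8% were called, 22.2% lower and 9.64% higher. With a minimum mean of 5 FPKM, 1510 of 4915 rows were lower and 655 higher. Hilpda did not reach that level, and the same 6 members were lower. The median log2 fold change was -0.69 over the 10 members and -0.09 over all rows tested. The 3 CCl4 libraries lay below the 3 control libraries without overlap in the same 6 genes, as they did in 34.0% of all tested rows (48.7% of rows lacked overlap in either direction).

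**Figure D1:**
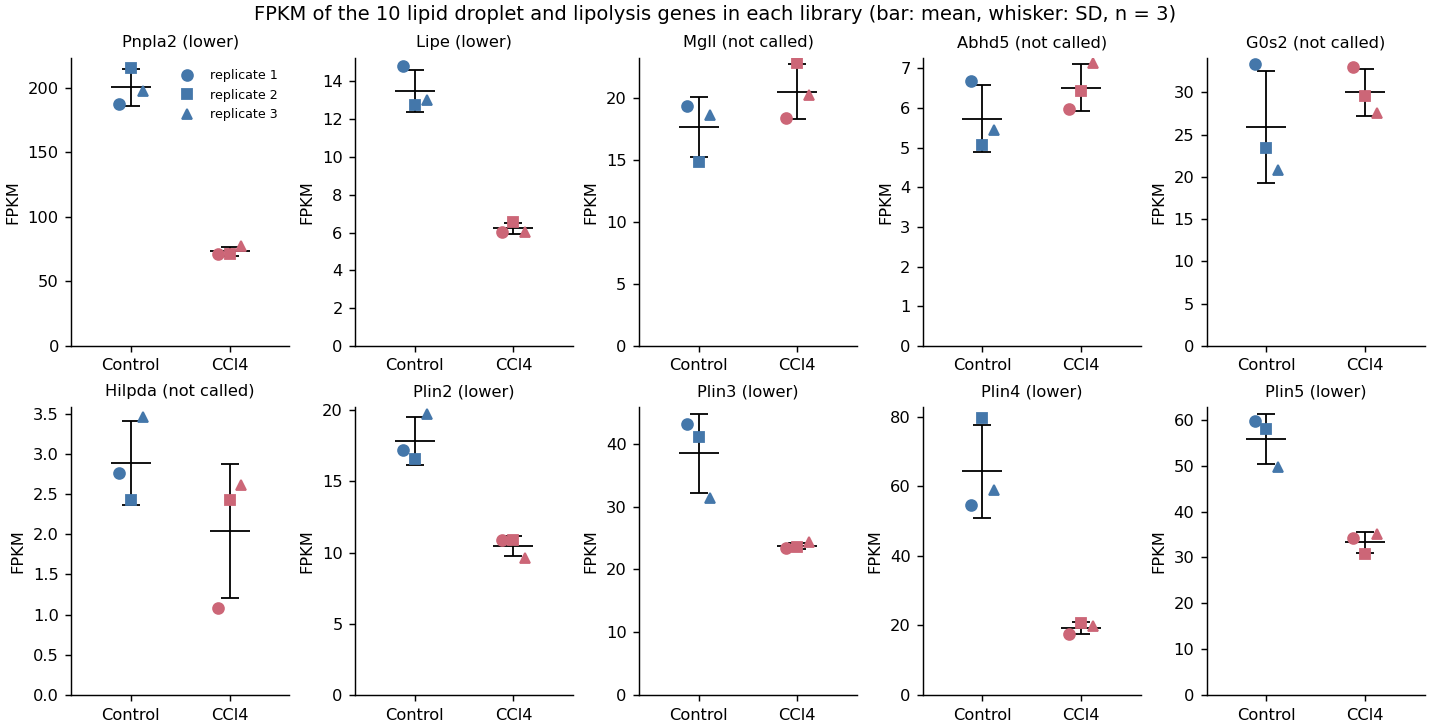
Level of each of the 10 genes in every library, in FPKM on a linear axis from 0, with the mean as a bar and the SD as whiskers (n = 3 libraries per group) and the result of the limma test in each title. The groups are apart for Pnpla2, Lipe, Plin2, Plin3, Plin4 and Plin5 and overlap for Mgll, Abhd5, G0s2 and Hilpda.

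Pnpla2 (ENSMUSG00000025509.15, chr7:141455198-141460743 in GRCm38) was the most abundant of the 10 genes in both groups. It stood at 188, 216 and 198 FPKM in control replicates 1, 2 and 3 and at 71.3, 71.1 and 77.3 FPKM in the CCl4 replicates. The lowest control library was more than any CCl4 library, and the mean went from 200.4 ± 14.3 to 73.2 ± 3.53 FPKM (SD, n = 3 each), which is 2.74 times lower. On the log2(FPKM + 1) scale Pnpla2 changed by -1.44 ± 0.08 (SE; limma adjusted p = 6.94e-05), and 64 called rows had a larger fall. Lipe, at chr7:25379527-25398710, stood at 14.8, 12.7 and 13.0 FPKM in the controls and at 6.04, 6.57 and 6.04 FPKM with CCl4, again with no overlap. The log2 fold change of Lipe was -1.01 ± 0.08 (SE; limma adjusted p = 0.00021).

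Mgll, at chr6:88724412-88828360, did not follow the lipases that act before it. Its levels were 19.4, 14.9 and 18.6 FPKM in the controls and 18.4, 22.8 and 20.2 FPKM in the CCl4 group. The groups overlapped, with CCl4 replicate 1 between the control libraries. The log2 fold change was 0.21 ± 0.12 (SE; limma adjusted p = 0.205). With median-ratio scaling it was 0.32 (adjusted p = 0.0498) and with quantile scaling 0.33 (adjusted p = 0.0478), so that Mgll was called higher under those scalings, and its adjusted p ranged from 0.0478 to 0.719 over the 18 alternatives. Its log2 fold change was lowest among single libraries left out without control replicate 2, at 0.10.

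The co-activator Abhd5, at chr9:122351608-122381524, was among the less abundant members in both groups. It stood at 6.68, 5.07 and 5.46 FPKM in control and at 5.97, 6.42 and 7.15 FPKM in CCl4 libraries, which overlap (log2 fold change 0.16 ± 0.11, SE; limma adjusted p = 0.276). The inhibitor G0s2, at chr1:193272161-193273217, stood at 33.4, 23.4 and 20.8 FPKM in the controls and at 33.0, 29.5 and 27.6 FPKM with CCl4. Control replicate 1 was the highest of the 6, above every CCl4 library, while the other controls were below all of them. The log2 fold change of G0s2 was 0.23 ± 0.16 (SE; limma adjusted p = 0.299), and rested on single libraries: it was 0.42 without control replicate 1 (adjusted p = 0.0183), where it was called higher, and 0.10 without control replicate 3 (adjusted p = 0.668). The inhibitor Hilpda, a gene induced by hypoxia and by fatty acids at chr6:29272488-29275446, was the least abundant member. It stood at 2.76, 2.43 and 3.46 FPKM in the controls and at 1.08, 2.43 and 2.61 FPKM in the CCl4 group. The groups overlapped and CCl4 replicate 1 lay apart at the low end (log2 fold change -0.39 ± 0.21, SE; limma adjusted p = 0.182). Without that library the log2 fold change of Hilpda was -0.13 (adjusted p = 0.449).

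All 4 perilipins fell, Plin4 by the most. Plin4 (ENSMUSG00000002831.13, chr17:56100591-56109803), a coat protein of fat and muscle, stood at 54.6, 79.7 and 58.9 FPKM in control and at 17.4, 20.6 and 19.7 FPKM in CCl4 libraries. The lowest control library was well above the highest CCl4 library, and control replicate 2 stood above the other controls. The log2 fold change was -1.68 ± 0.14 (SE; limma adjusted p = 0.000228), and the mean was 3.35 times lower in CCl4. Plin5, the perilipin of oxidative tissue that tethers droplets to mitochondria, stood at 59.8, 58.0 and 49.7 FPKM in the controls and at 34.3, 30.7 and 35.0 FPKM with CCl4. Its log2 fold change was -0.72 ± 0.10 (SE; limma adjusted p = 0.00142). The groups were apart, and the mean of Plin5 was 1.67 times lower.

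Plin2, the coat protein found on droplets of most cells, stood at 17.2, 16.5 and 19.7 FPKM in the controls and at 10.9, 10.9 and 9.64 FPKM in the CCl4 group. Its log2 fold change was -0.72 ± 0.09 (SE; limma adjusted p = 0.0012). Plin3, which moves to droplets from the cytosol as they form, stood at 43.1, 41.0 and 31.3 FPKM in control and at 23.5, 23.5 and 24.3 FPKM in CCl4 libraries, with a log2 fold change of -0.66 ± 0.12 (SE; limma adjusted p = 0.00506). Neither gene showed overlap of the groups. Control replicate 3 was the lowest control library for Plin3 and Plin5 and the highest for Plin2. Plin1, the perilipin of fat cells and no member here, did not pass the filter.

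**Figure D2:**
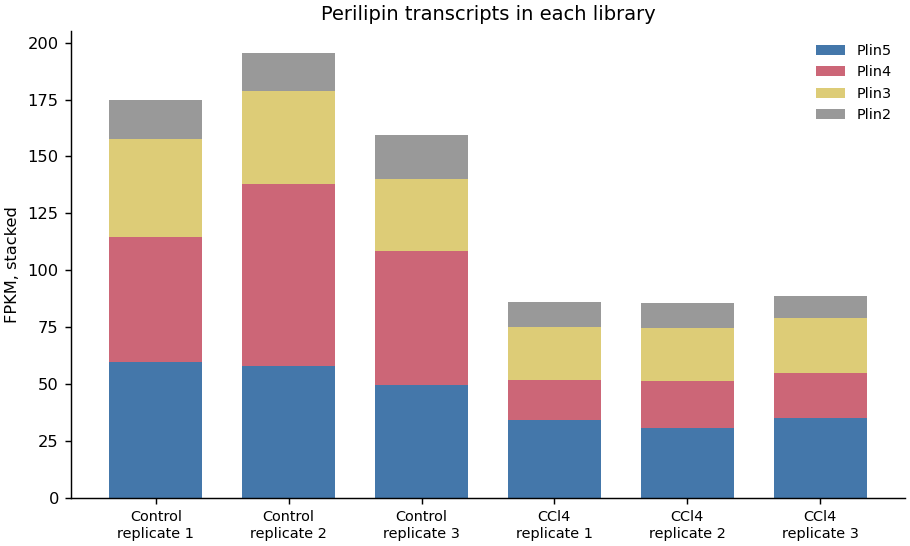
Stacked FPKM of the 4 perilipin genes in each library, with Plin5 at the bottom and Plin2 at the top and the vertical axis starting at 0. The summed height is 160 to 195 FPKM in the control libraries and 85.6 to 88.7 FPKM in the CCl4 libraries, and the Plin4 segment shrinks by the largest share.

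Summed over the 4 genes, perilipin transcripts were at 176.5 ± 17.9 FPKM in control and 86.8 ± 1.66 FPKM in CCl4 libraries (SD, n = 3 each). The CCl4 libraries all lay below the controls. Plin4 made up 36.3% ± 4.82 of the sum in control and 22.2% ± 1.90 in CCl4 libraries, and ranged from 31.2% to 40.8% and from 20.2% to 24.0%, with no overlap (exact permutation p = 0.1, two-sided). Plin5 made up 31.7% ± 2.32 and 38.4% ± 2.20, Plin3 21.8% ± 2.61 and 27.4% ± 0.0921, and Plin2 10.2% ± 1.96 and 12.1% ± 1.03 (SD, n = 3 each). Plin4 was thus the leading perilipin transcript in 2 of 3 control libraries and in none of the 3 CCl4 libraries, where Plin5 led. Plin4 and Plin5 did not differ beyond their spread in control libraries.

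The order of the 10 genes by level changed accordingly. In control libraries it was Pnpla2, Plin4, Plin5, Plin3, G0s2, Plin2, Mgll, Lipe, Abhd5 and Hilpda. Neighbours whose ranges overlapped there were Plin4 with Plin5, Plin3 with G0s2, and Plin2 with Mgll. In CCl4 libraries it was Pnpla2, Plin5, G0s2, Plin3, Mgll, Plin4, Plin2, Abhd5, Lipe and Hilpda, with overlap between Plin5 and G0s2, Mgll and Plin4, and Abhd5 and Lipe. Lipe was above Abhd5 in each control library and overlapped it in CCl4 libraries. G0s2 and Mgll, which were not called, moved up in the order as the called genes around them fell.

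Ratios within a library do not depend on how libraries are scaled to each other, and 4 were compared. The ratio of Pnpla2 to its inhibitor G0s2 was 5.62, 9.21 and 9.50 in control and 2.16, 2.41 and 2.80 in CCl4 libraries. Every CCl4 library was below every control library, and the mean log2 ratio was 2.98 ± 0.42 and 1.29 ± 0.19 (SD, n = 3 each), a difference of -1.69 (two-sided exact permutation test, p = 0.1, adjusted over 4 ratios p = 0.133). The ratio of Pnpla2 to its co-activator Abhd5 was 28.0, 42.5 and 36.2 in control and 11.9, 11.1 and 10.8 in CCl4 libraries. Here too the groups were apart, by -1.64 on the log2 scale (exact permutation p = 0.1, adjusted p = 0.133). Against the median of the 20 cardiomyocyte markers of the same library, Pnpla2 was at 0.187, 0.265 and 0.248 in control and at 0.0663, 0.0758 and 0.0772 in CCl4 libraries. This ratio differed by -1.66 on the log2 scale (exact permutation p = 0.1, adjusted p = 0.133). The median marker itself was at 797 to 1001 FPKM over the controls and at 938 to 1076 FPKM after CCl4. The ratio takes in the change of both. With 3 against 3 libraries p = 0.1 is the smallest value this exact test can give. The ratio of Plin5 to Plin2 was 3.47, 3.51 and 2.52 in control and 3.16, 2.83 and 3.63 in CCl4 libraries. The groups overlapped, with a difference of 0.03 on the log2 scale (exact permutation p = 0.8, adjusted p = 0.8), whose sign turned when 1 was added to the values, without control replicate 3 (-0.13) and without CCl4 replicate 3 (-0.07).

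**Figure D3:**
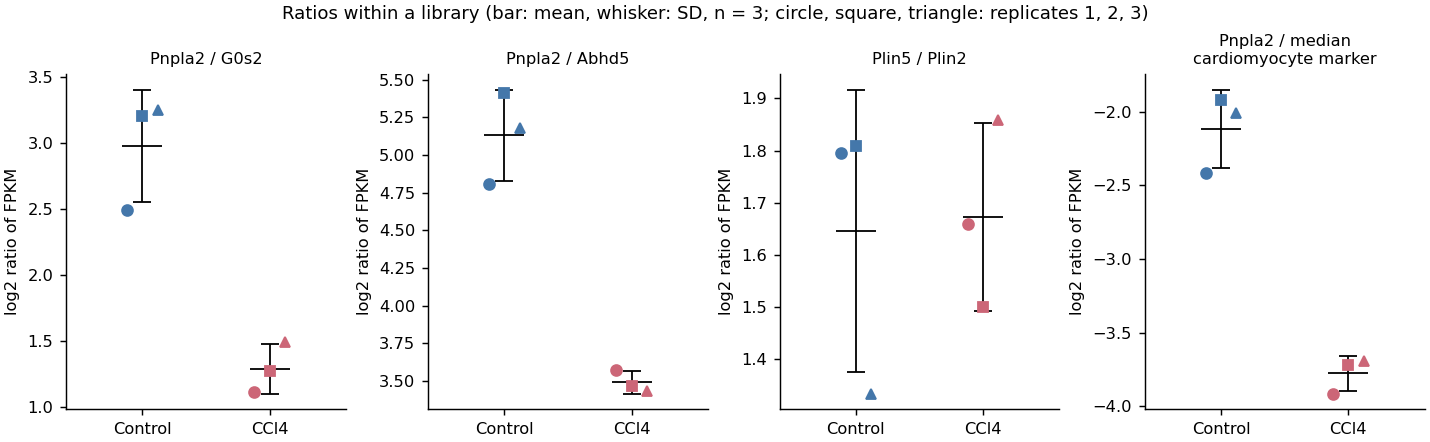
Log2 ratio of FPKM between genes of the same library, for 4 pairs, with the mean as a bar, the SD as whiskers (n = 3 libraries per group) and a symbol for each replicate; the vertical axes differ between panels and do not start at 0. Control and CCl4 libraries are apart for Pnpla2 against G0s2, against Abhd5 and against the median cardiomyocyte marker, and overlap for Plin5 against Plin2.

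Scaling moved all members together. The median log2 fold change over all tested rows was -0.09 as deposited, -0.23 after rescaling to a common sum (TPM), -0.14 after leaving out mitochondrial rows, and -0.02 with a trimmed mean of M-values (TMM). The split of all calls was 2441 lower and 1060 higher as deposited, 4221 and 617 as TPM and 1738 and 1485 with TMM. The 6 falls of members were called under every one of the 18 alternatives, among them the scaling without mitochondrial rows. Over the scalings Pnpla2 ranged from -1.60 to -1.33, Plin4 from -1.85 to -1.55, Lipe from -1.20 to -0.89 and Plin3 from -0.82 to -0.52. Mgll, Abhd5 and G0s2 stayed above 0 under each of them, at their lowest 0.06, 0.03 and 0.08. Hilpda, which was not called under any scaling, ranged from -0.58 to -0.31.

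**Figure D4:**
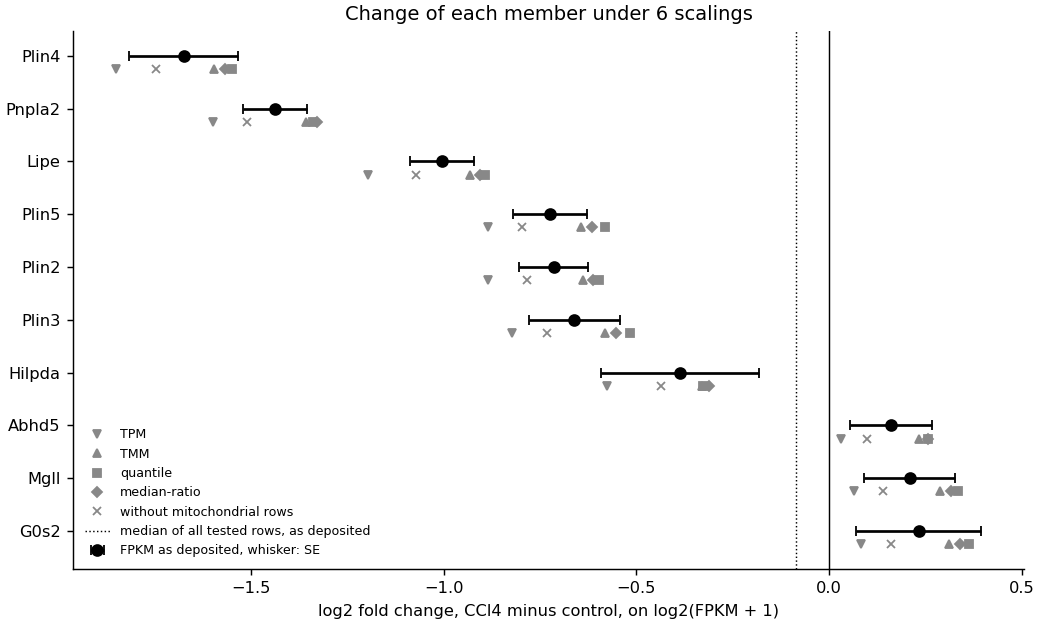
Log2 fold change of each gene (CCl4 minus control, on log2(FPKM + 1)) as deposited, with the SE from limma as whiskers, and under 5 other scalings in grey; the dotted line is the median of all tested rows, -0.09. Pnpla2, Lipe and the 4 perilipins lie left of the dotted line under every scaling, and Mgll, Abhd5 and G0s2 right of 0. Hilpda, which was not called, also lies left of the dotted line under every scaling.

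Other genes of droplets, triglyceride synthesis and the control of lipolysis were read from 3 lists. Of 28 other lipid droplet and lipolysis genes 20 were tested, 3 fell and 2 rose, with a median log2 fold change of -0.10. Over all tested rows 22.2% fell and 9.64% rose, so the share of falls was below that background and the share of rises near it. The falls were Hsd17b11, a droplet dehydrogenase, from 16.6 ± 3.17 to 6.39 ± 0.445 FPKM, Aup1, a droplet protein of protein breakdown, from 14.9 ± 0.739 to 10.7 ± 0.82 FPKM, and Mettl7a1, a methyltransferase-like droplet protein, from 17.5 ± 0.419 to 14.0 ± 1.3 FPKM (SD, n = 3 each; limma adjusted p = 0.000458, 0.00602 and 0.0247). The rises were Fitm1, a fat-storage protein of striated muscle that promotes droplet formation, from 29.0 ± 7.9 to 55.3 ± 2.2 FPKM, and Cidea, which helps droplets fuse, from 18.4 ± 4.48 to 33.3 ± 1.2 FPKM (limma adjusted p = 0.00478 and 0.00599). Both Fitm1 and Cidea were above all control libraries in each CCl4 library. As TPM 7 of the 20 tested genes of this list were lower, where 4221 of all 10995 tested rows were lower.

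In triglyceride synthesis 5 of 14 tested genes fell and 2 rose, with a median log2 fold change of -0.05, against 22.2% and 9.64% of all tested rows. Gpam and Gpat3, which add the first fatty acid to glycerol phosphate, fell from 38.5 ± 8.17 to 23.8 ± 3.66 FPKM and from 4.24 ± 0.155 to 2.79 ± 0.215 FPKM (limma adjusted p = 0.0174 and 0.00331). The last step was split: Dgat2, the more abundant enzyme, fell from 97.9 ± 15.4 to 73.8 ± 5.51 FPKM while Dgat1 rose from 5.09 ± 0.245 to 6.69 ± 0.286 FPKM (limma adjusted p = 0.0363 and 0.0104). Mttp, which loads triglyceride onto lipoproteins, and the acyltransferase Agpat3 fell by 0.54 and 0.27 on the log2 scale (limma adjusted p = 0.00722 and 0.0303), and the phosphatidate phosphatase Lpin1 rose by 0.36 (limma adjusted p = 0.0496). These counts were not stable: falls numbered 2 without CCl4 replicate 1 and 3 without CCl4 replicate 2, CCl4 replicate 3 or control replicate 1, and rises numbered 4 without control replicate 1, 1 without any other single library and 0 as TPM.

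Of 24 tested upstream regulators of lipolysis 8 fell and 1 rose, with a median log2 fold change of -0.12, against 22.2% and 9.64% of all tested rows. Foxo3, a forkhead factor of the insulin pathway, fell from 17.9 ± 3.05 to 7.36 ± 0.694 FPKM, the insulin receptor gene Insr from 14.8 ± 1.16 to 7.71 ± 0.577 FPKM and Adcy6, a heart adenylyl cyclase that makes the cyclic AMP which triggers lipolysis, from 45.0 ± 4.89 to 27.4 ± 1.72 FPKM (SD, n = 3 each; limma adjusted p = 0.000624, 0.000472 and 0.0018). Ppargc1a, the co-activator of PPAR alpha, fell from 16.2 ± 1.78 to 9.61 ± 0.95 FPKM, and Fabp3, the fatty acid carrier of heart muscle, from 1575 ± 140 to 1017 ± 92.9 FPKM (limma adjusted p = 0.00223 and 0.00321). Cav1, the caveolin of vessel and fat cell membranes, rose from 55.9 ± 0.701 to 82.8 ± 10.6 FPKM (limma adjusted p = 0.00542). Ppara itself, the gene of PPAR alpha, was at 5.01 ± 0.94 and 3.80 ± 0.547 FPKM and was not called (limma adjusted p = 0.103). The count of falls was 5 without control replicate 1 and 5 with no filter on low values. It also moved with scaling: 11 as TPM, 9 without mitochondrial rows, and 6 with TMM, median-ratio or quantile scaling. As TPM 4221 of all 10995 tested rows were lower.

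**Figure D5:**
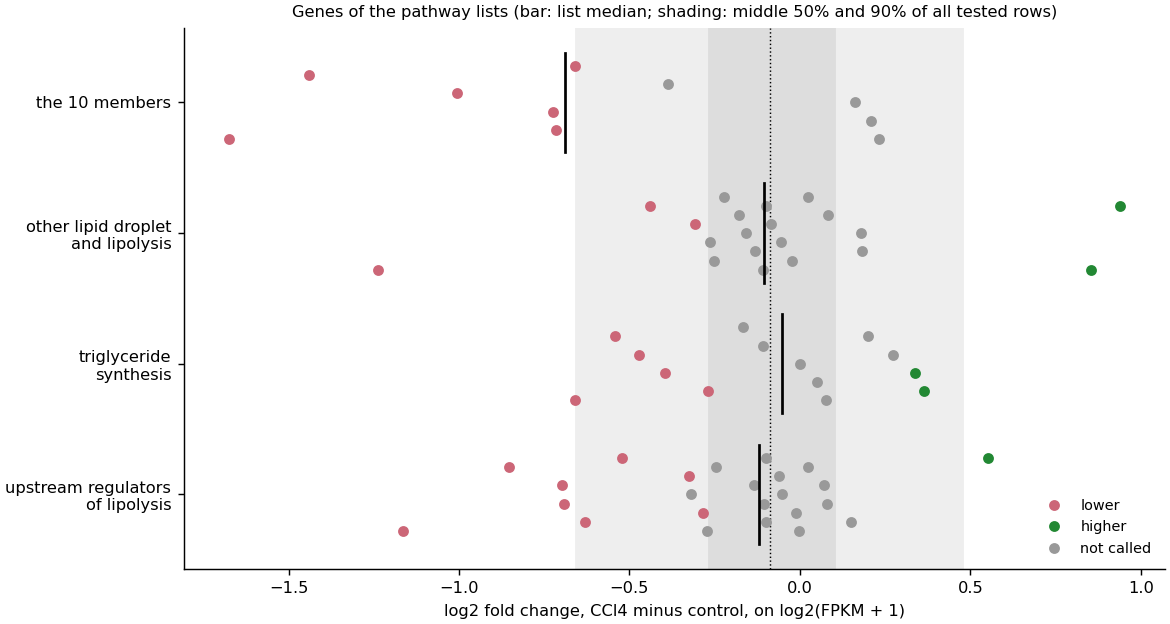
Log2 fold change (CCl4 minus control, on log2(FPKM + 1)) of every tested gene of the 10 members and of 3 related lists, coloured by the limma result, with the list median as a bar; shading spans the middle 50% and 90% of all tested rows and the dotted line is their median. The median of the 10 members is -0.69, and those of the other lists lie between -0.12 and -0.05.

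Plin4 and Plin5 are neighbours on chromosome 17, 1797 bp apart on the same strand, and Plin3 lies a further 159879 bp away. The closest tested genes that do not overlap the Plin4 and Plin5 pair fell on either side: Lrg1, 2081 bp from Plin5, encodes a secreted glycoprotein and went from 36.6 ± 9.86 to 13.1 ± 0.657 FPKM, and Ubxn6, 25562 bp from Plin4, encodes a cofactor of the ATPase VCP and went from 9.39 ± 0.44 to 5.98 ± 0.151 FPKM (SD, n = 3 each; limma adjusted p = 0.000834 and 0.00111). On the flanks of Pnpla2, neither Cracr2b, 350 bp away, nor the ribosomal gene Rplp2, 3612 bp away, was called (log2 fold changes -0.04 and -0.25; limma adjusted p = 0.707 and 0.0564). Counting the nearest tested gene on each side that overlaps no member and is none itself, 7 of 18 fell and 11 were not called, against 22.2% of all tested rows that fell. Genes that overlap a member were left out of that count. Exons of Plin4 share 17 bp with those of Hdgfl2 on the opposite strand, which stood at 7.78 FPKM at most and fell by 0.36 on the log2 scale (limma adjusted p = 0.019). G0s2 lies within the span of Lamb3 on the opposite strand, with no shared exon, and Lamb3 fell by 0.55 (limma adjusted p = 0.0464; 3.19 FPKM at most). The antisense genes that overlap exons of Lipe, Mgll and Abhd5 stood at 0.14 FPKM at most.

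The rows whose pattern over the 6 libraries was most like that of Pnpla2 were found by Pearson correlation of log2(FPKM + 1), given here as a description. They were the first row of Nnt described above (r = 0.9997), Slc27a1, a fatty acid transporter (r = 0.999), the reductase Dhrs4 (r = 0.999), Saraf, a regulator of store-operated calcium entry (r = 0.999), and Acat1, a mitochondrial thiolase (r = 0.998). All 5 were lower in CCl4, with log2 fold changes of -4.39, -1.23, -0.58, -1.03 and -0.33. In all, 104 rows had r of at least 0.99, and with 2 groups that lie apart such values largely restate the group difference. Among members r was highest for Plin4 (0.99) and Lipe (0.975) and lowest for Mgll (-0.648).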

How the data were processed

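The authors deposited 1 table of FPKM values with 2 decimals for 6 libraries, and the submitters' processing notes name StringTie 2.1.6 and GRCm38. No source used here gives the aligner, annotation release or strand setting. Polyadenylated RNA was captured with oligo(dT), marked for strand and read from both ends, per the labels' protocols. Libraries were grouped by their titles, and the design text counts 3 mice per group, so p-values measure the spread between mice if each library is 1 mouse. Fragment counts could not be recovered. Low values of short single-exon genes gave a rough depth of 30900000 to 42000000 fragments per library. The search was limited to preset bounds, so these depths are guesses and not measurements. At those depths 28.2% to 36.6% of the low values came within 0.1 of a whole number of fragments, and no chance level was computed. The depths were fitted to these same low values, so this share cannot test them. Depth beyond this is unknown.

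The 10995 rows whose FPKM averaged 1 or more were transformed to log2(FPKM + 1) and fitted with limma 3.58.1 in R 4.3.3 (trend, two-sided, no covariate), with Benjamini-Hochberg adjustment over all of them and a threshold of 0.05. The pipeline was also run on simulated data with independent noise and no scaling difference between libraries, so that run says nothing about scaling. Ratios used FPKM + 0.01 and two-sided exact permutation tests. TMM was computed without weights. The members and lists were chosen with earlier results of these data known. Named were the 10 members, the 5 genes with the smallest p of each of 3 pathway lists, further called genes where a count was 5 or fewer, preset fat cell markers and regulators, and the 5 rows most like Pnpla2. Lrg1, Ubxn6, Cracr2b, Rplp2, Hdgfl2 and Lamb3 were named for their position, and the adipocyte markers Cidea, Pparg, Thrsp, Cfd, Car3 and Fabp4 after their levels were seen. Of the listed symbols 1 was matched through a RefSeq synonym. Positions are those of GENCODE M21 genes with the same symbol.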

Additional observations from a re-analysis of the deposited data

How the results depend on the processing

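The 6 falls of Pnpla2, Lipe, Plin2, Plin3, Plin4 and Plin5 were called in all 18 alternative fits (108 values for 6 genes). The count of higher members was 1 in place of 0 with median-ratio scaling and with quantile scaling (Mgll in each), and 0 to 1 when each library was left out (G0s2). As TPM the lower count of other lipid droplet genes was 7 in place of 3, while that of all rows was 4221 in place of 2441. The lower count of other lipid droplet genes ran from 2 to 4 over single libraries left out. For triglyceride synthesis the lower count was 3 in place of 5 with TMM, median-ratio or quantile scaling, without a filter or with a minimum mean of 5 FPKM, and with the replicate number as a block, and 2 to 4 over single libraries left out. Its higher count was 1 in place of 2 with pseudocounts of 0.1 or 0.01, no filter, no trend, the replicate block or without mitochondrial rows, 0 as TPM, and 1 to 4 over single libraries left out. The lower count of regulators was 5 in place of 8 with no filter, and 5 to 7 over single libraries left out. It was 11 as TPM, 9 without mitochondrial rows, and 6 with TMM, median-ratio or quantile scaling or the replicate block. The log2 difference of the Plin5 to Plin2 ratio was -0.0089 with a pseudocount of 1 and -0.13 to 0.11 over single libraries left out. Over all rows 3501 were called, and 2188 without CCl4 replicate 3; the higher calls numbered 1060, against 1713 with median-ratio and 1722 with quantile scaling, and the lower 2441, against 1574 with median-ratio scaling. The causes were not tested. Same-numbered libraries deviated from their group means with correlations of -0.064, 0.046 and -0.038. Libraries of different numbers gave -0.097 to 0.123. With 3 libraries per group these values cannot decide whether the numbers pair the samples. Taking the replicate number as a block changed no call of a member. Over single libraries left out, the log2 fold change ran from 0.10 to 0.42 for G0s2 and from -0.53 to -0.13 for Hilpda. Exact tests of 3 against 3 libraries cannot pass 0.05.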
